A study of Mus musculus with 20 samples.

Results

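Cholesterol is built from acetyl-CoA in a chain of enzymatic steps, and the early part of that chain, from acetoacetyl-CoA to squalene, is the mevalonate arm. The 9 genes described here encode enzymes of that arm and were chosen by name: Acat2, Hmgcs1, Mvk, Pmvk, Mvd, Idi1, Fdps, Ggps1 and Fdft1, out of 54532 genes in the deposited table. Their RNA was measured in mouse articular chondrocytes, the cells that make and keep up joint cartilage, taken from 6-week-old mice and treated for 48 hours. The groups were 20 µM 25-hydroxycholesterol-3-sulfate (25HC3S), 20 µM 25-hydroxycholesterol (25HC), 2 µM GW3965 and DMSO alone (Vehicle), with 5 libraries in each group. 25HC is an oxysterol, 25HC3S is the same molecule with a sulfate group, and GW3965 is a synthetic compound that activates liver X receptors. The strain, the sex and the number of animals behind each group are not given in the labels, nor do they tie the replicates to separate animals or cultures, so every p-value here refers to spread among libraries and some of that spread may be technical.

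Cells adjust the mevalonate arm to their sterol supply. When membrane sterols are low, the transcription factor SREBP2 is carried by SCAP to the Golgi, cut, and sent to the nucleus, where it raises transcription of the genes of cholesterol synthesis. When sterols are plentiful, INSIG proteins hold SCAP in the endoplasmic reticulum and these genes are transcribed less, and 25HC is a classic agent of that feedback through its binding to INSIG. The arm also supplies farnesyl and geranylgeranyl groups for the prenylation of proteins, and the isoprenoid chains of ubiquinone and dolichol.

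Levels are in FPKM, fragments per kilobase of gene length, scaled to library depth. The libraries held 14653777 to 19365220 fragments in genes. Differences are of log2(FPKM + 1), a scale that compresses changes at low levels. The threshold for a call was an adjusted p of 0.05 (limma, Benjamini-Hochberg over 12752 tested genes). Of the 9 members, 8 passed the requirement of at least 1 FPKM in at least 5 libraries. Fdps did not: it reached 1 FPKM in 3 libraries, so it has levels and an exact permutation test but no place in the counts. All 10 chondrocyte markers examined, among them Col2a1, Acan and Sox9, were detected. In 4 libraries, 25HC3S replicate 1 and Vehicle replicates 2, 3 and 4, between 237 and 1171 genes had exactly 1 fragment, against 1808 to 2057 genes in the other 16 libraries. The same 4 detected 16346 to 19648 genes, against 20847 to 21607 in the others. Mitochondrial genes held 3.14% of fragments in 25HC3S replicate 1, 0.369%, 4.07% and 3.602% in Vehicle replicates 2, 3 and 4, and 0.889% to 1.41% in the others. The part of these differences in the results was not tested. Each count of called members is therefore given with and without these 4 libraries.

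Regulatory sequence was examined for the 7 members with a RefSeq promoter window (GRCm38.p6, from 250 bases before the start site to 50 after it, 5′ to 3′ on the gene's strand). The 4 windows printed were chosen after the levels and matches were seen: Hmgcs1 and Acat2 hold the sterol regulatory element core, Mvk holds the most NF-Y boxes, and Ggps1 is the member whose level was not called in any comparison. Capitals mark exact matches on either strand to the sterol regulatory element core CACNCCAC, the NF-Y box CCAAT and the Sp1 box GGGCGG. NF-Y and Sp1 are the factors known to act beside SREBP2 at many sterol-regulated promoters. The Hmgcs1 window is chr13:119690101-119690400 (plus strand), that of Acat2 is chr17:12960676-12960975 (minus strand), that of Mvk is chr5:114444019-114444318 (plus strand) and that of Ggps1 is chr13:14063439-14063738 (minus strand).
Hmgcs1: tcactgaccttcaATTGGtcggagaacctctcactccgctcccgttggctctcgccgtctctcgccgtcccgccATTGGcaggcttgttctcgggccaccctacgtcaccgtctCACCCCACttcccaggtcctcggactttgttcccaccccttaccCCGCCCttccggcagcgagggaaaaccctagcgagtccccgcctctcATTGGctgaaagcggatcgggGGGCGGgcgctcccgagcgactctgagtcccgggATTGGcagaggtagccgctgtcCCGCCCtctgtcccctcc
Acat2: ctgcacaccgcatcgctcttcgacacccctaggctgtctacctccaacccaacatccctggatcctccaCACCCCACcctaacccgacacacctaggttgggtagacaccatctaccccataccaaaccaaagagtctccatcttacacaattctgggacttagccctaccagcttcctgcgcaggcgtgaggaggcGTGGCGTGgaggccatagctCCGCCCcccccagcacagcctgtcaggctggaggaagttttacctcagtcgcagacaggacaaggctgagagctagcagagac
Mvk: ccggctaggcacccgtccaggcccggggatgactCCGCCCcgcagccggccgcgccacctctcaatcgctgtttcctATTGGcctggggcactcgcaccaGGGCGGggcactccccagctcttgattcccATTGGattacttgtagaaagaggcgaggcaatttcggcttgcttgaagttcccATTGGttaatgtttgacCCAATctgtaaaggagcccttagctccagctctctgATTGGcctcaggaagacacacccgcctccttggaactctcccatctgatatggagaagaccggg
Ggps1: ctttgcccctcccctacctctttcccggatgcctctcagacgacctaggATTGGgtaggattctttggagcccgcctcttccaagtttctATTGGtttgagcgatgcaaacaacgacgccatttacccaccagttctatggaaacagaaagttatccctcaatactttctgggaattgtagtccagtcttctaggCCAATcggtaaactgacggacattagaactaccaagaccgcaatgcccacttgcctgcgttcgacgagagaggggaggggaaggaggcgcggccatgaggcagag

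The sterol regulatory element core was found 2 times in Acat2 and 1 time in Hmgcs1 and not in the windows of the other 5 members, and 6.24% of 32851 mouse windows of the same length hold it. NF-Y boxes were found 5 times in Mvk, 4 times in Hmgcs1, 3 times in Ggps1, 2 times each in Mvd and Idi1, 1 time in the first of 2 windows of Pmvk and not in Acat2, where 37.4% of all windows hold at least 1. The second window of Pmvk, chr3:89459321-89459620, held none of the searched motifs. The Sp1 box was found in Hmgcs1, Mvk, Acat2, Mvd and Idi1 and is in 35.7% of all windows. The E-box CACGTG, which is in 7.15% of all windows, was in the window of none of the 7. No searched motif overlapped another in the printed windows. These matches describe letters only.

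The first enzymes of the arm make HMG-CoA. Acat2 (chromosome 17, 12942890 to 12960747, minus strand), the cytosolic thiolase that joins acetyl-CoA units into acetoacetyl-CoA, had 4.49, 5.67, 6.60, 7.75 and 7.01 FPKM under 25HC3S, 9.35, 10.0, 9.71, 11.7 and 9.89 FPKM under 25HC, 18.5, 15.9, 15.7, 17.2 and 15.1 FPKM under GW3965, and 7.78, 9.57, 6.97, 4.42 and 8.60 FPKM in Vehicle. All 5 libraries of 25HC3S lay below all 5 of 25HC, and all 5 of GW3965 lay above all 5 of Vehicle, while 25HC3S overlapped Vehicle. Of the Acat2 transcript, 65.6% matches other genes at 95% identity or more, chiefly Acat3, whose own level never passed 0.524 FPKM (0 to 20 fragments). The other is Tcp1, which matches over 445 bases and stood at 36.4 to 71.3 FPKM (3098 to 5623 fragments), against 176 to 860 fragments of Acat2. Reads could be exchanged with both, and the part of such exchange in the Acat2 values was not tested.

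Hmgcs1 (chromosome 13, 119690379 to 119708260, plus strand), the cytosolic HMG-CoA synthase and a standard SREBP2 target, had 8.01, 7.28, 7.74, 8.13 and 8.18 FPKM under 25HC3S, 17.6, 19.2, 21.9, 22.3 and 20.8 FPKM under 25HC, 23.9, 23.4, 25.3, 25.7 and 27.7 FPKM under GW3965, and 13.6, 20.4, 17.1, 12.4 and 14.4 FPKM in Vehicle. The 25HC3S libraries were the tightest set, at 7.87 ± 0.370 FPKM (SD, n = 5), and lay below every library of 25HC and of Vehicle. The mean under 25HC3S was 0.386 times that under 25HC and 0.506 times that of Vehicle. Exons of Hmgcs1 share 557 bases (12.1%) with Gm48342 on the opposite strand, and Gm48342 held 0 to 8 fragments per library. The part of Gm48342 in the Hmgcs1 values was not tested.

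**Figure D1:**
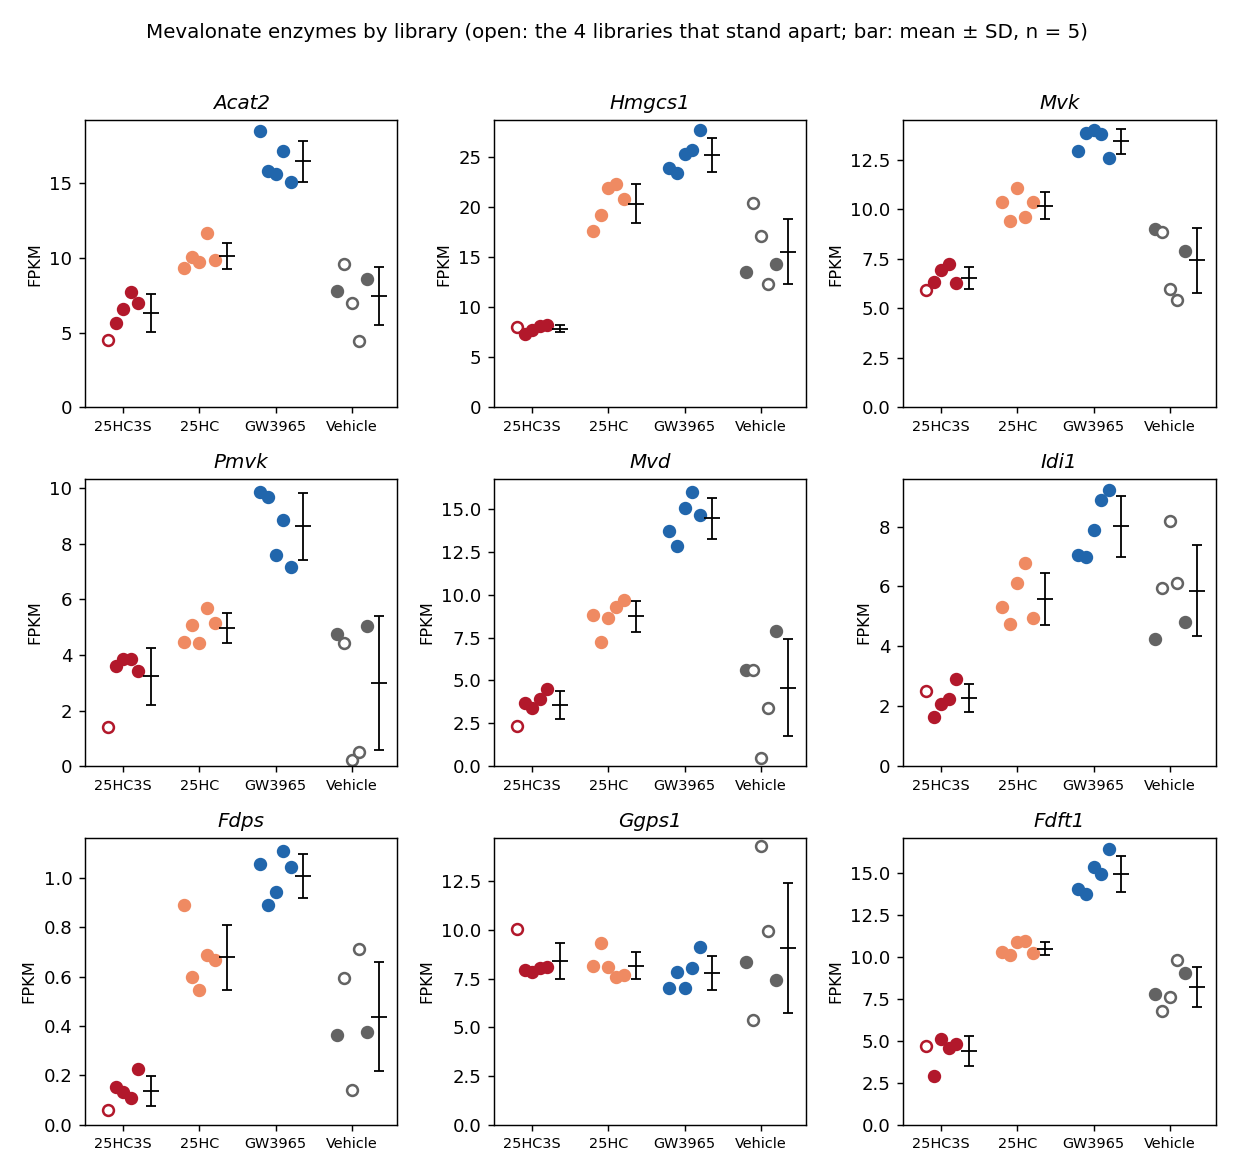
FPKM of the 9 mevalonate enzymes in each library of the 25HC3S, 25HC, GW3965 and Vehicle groups, with the mean and SD (n = 5) beside each group; open circles are the 4 libraries that stand apart. In all panels except that of Ggps1, every 25HC3S point lies below every 25HC point.

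The kinases and the decarboxylase turn mevalonate into isopentenyl diphosphate. Mvk (chromosome 5, 114444269 to 114460591, plus strand), mevalonate kinase, had 5.90, 6.31, 6.96, 7.26 and 6.27 FPKM under 25HC3S, 10.4, 9.41, 11.1, 9.62 and 10.4 FPKM under 25HC, 12.9, 13.9, 14.0, 13.8 and 12.6 FPKM under GW3965, and 8.99, 8.84, 5.96, 5.42 and 7.91 FPKM in Vehicle. The low Vehicle libraries were replicates 3 and 4, and 25HC3S overlapped Vehicle through them. Every library of 25HC was above every library of Vehicle.

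Pmvk (chromosome 3, 89454541 to 89469013, plus strand), phosphomevalonate kinase, had 1.42, 3.61, 3.84, 3.86 and 3.42 FPKM under 25HC3S, 4.46, 5.08, 4.42, 5.69 and 5.16 FPKM under 25HC, 9.86, 9.69, 7.60, 8.85 and 7.15 FPKM under GW3965, and 4.74, 4.41, 0.234, 0.522 and 5.04 FPKM in Vehicle. Vehicle replicates 3 and 4 rest on 6 and 14 fragments, and the other 3 Vehicle libraries on 109 to 158 fragments. Mvd (chromosome 8, 122433601 to 122443422, minus strand), the decarboxylase, had 2.31, 3.68, 3.39, 3.91 and 4.50 FPKM under 25HC3S, 8.82, 7.27, 8.66, 9.32 and 9.67 FPKM under 25HC, 13.7, 12.8, 15.1, 16.0 and 14.7 FPKM under GW3965, and 5.59, 5.60, 0.468, 3.37 and 7.91 FPKM in Vehicle. Vehicle replicate 3 was again the lowest of all 20 libraries, with 13 fragments. For both genes the Vehicle libraries spanned the whole range of 25HC3S, and GW3965 stood above all other libraries. No other gene matched the transcripts of Mvk, Pmvk or Mvd.

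The last 4 genes act on the isoprenoid diphosphates. Idi1 (chromosome 13, 8885501 to 8892451, plus strand), which isomerises isopentenyl diphosphate, had 2.51, 1.62, 2.06, 2.25 and 2.89 FPKM under 25HC3S, 5.32, 4.73, 6.13, 6.79 and 4.94 FPKM under 25HC, 7.06, 6.99, 7.90, 8.89 and 9.21 FPKM under GW3965, and 4.23, 5.96, 8.19, 6.12 and 4.80 FPKM in Vehicle. Its 25HC3S libraries lay below all other libraries. Vehicle replicate 3, the lowest library of the experiment for Pmvk and Mvd, was the highest of the Vehicle group for Idi1. Of the Idi1 transcript, 33.3% matches 3 other genes at 95% identity or more. The pseudogene Gm13502 matches over 684 bases and held 1 to 15 fragments per library. Gm35570 and Gm48574 held 0 to 2 fragments each. The part of read sharing in the Idi1 values was not tested.

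Fdft1 (chromosome 14, 63145150 to 63179578, minus strand), squalene synthase, commits farnesyl diphosphate to sterols. It had 4.69, 2.89, 5.15, 4.56 and 4.82 FPKM under 25HC3S, 10.3, 10.2, 10.9, 11.0 and 10.3 FPKM under 25HC, 14.1, 13.8, 15.4, 15.0 and 16.5 FPKM under GW3965, and 7.81, 6.78, 7.63, 9.83 and 9.04 FPKM in Vehicle. The 25HC3S libraries lay below, the 25HC libraries above and the GW3965 libraries above all 5 of Vehicle. Exons of Fdft1 share 774 bases (18.3%) with Ctsb on the opposite strand, a cathepsin gene at 136.6 to 297.2 FPKM, and whether the counting used strand is not given. Ctsb averaged 193 ± 30.5 FPKM under 25HC3S, 266 ± 16.6 FPKM under 25HC, 290 ± 5.42 FPKM under GW3965 and 203 ± 64.5 FPKM in Vehicle (SD, n = 5 each). The order of these means over the 4 groups was that of Fdft1. In all 20 libraries Ctsb was not called under 25HC3S against 25HC (-0.47, adjusted p = 0.356) or against Vehicle (-0.02, adjusted p = 0.948, limma). It was called higher under GW3965 than in Vehicle (0.58, adjusted p = 0.0435, limma). Without the 4 libraries that stand apart, Ctsb was lower under 25HC3S than under 25HC (-0.36, adjusted p = 4.30e-05) and than in Vehicle (-0.35, adjusted p = 0.00128, limma). The pseudogene Gm6781 matches the Fdft1 transcript over 1249 bases and held 0 to 4 fragments per library. The part of Ctsb and of Gm6781 in the Fdft1 values was not tested.

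Ggps1 (chromosome 13, 14050659 to 14063488, minus strand) makes geranylgeranyl diphosphate, the lipid that anchors Rab GTPases to membranes, on a branch away from sterols. It had 10.1, 7.95, 7.86, 8.03 and 8.10 FPKM under 25HC3S, 8.15, 9.31, 8.12, 7.56 and 7.67 FPKM under 25HC, 7.02, 7.84, 7.02, 8.07 and 9.11 FPKM under GW3965, and 8.36, 5.39, 14.3, 9.94 and 7.45 FPKM in Vehicle. All groups overlapped, and the highest and the lowest library were both Vehicle libraries that stand apart, replicates 3 and 2. Ggps1 shares 257 exon bases with Arid4b on the opposite strand, which averaged between 2.57 and 3.24 FPKM in the 4 groups.

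Fdps (chromosome 3, 89093588 to 89101959, minus strand), farnesyl diphosphate synthase, was read at 4 to 83 fragments per library. It had 0.0610, 0.154, 0.131, 0.110 and 0.225 FPKM under 25HC3S, 0.889, 0.598, 0.547, 0.688 and 0.668 FPKM under 25HC, 1.06, 0.892, 0.944, 1.11 and 1.04 FPKM under GW3965, and 0.363, 0.594, 0.143, 0.713 and 0.377 FPKM in Vehicle. The order of the group means was that of Hmgcs1, at a level far below its neighbours in the pathway. Over 4 comparisons by two-sided exact permutation of the group means, where 0.00794 is the smallest p possible with 5 libraries a group, 25HC3S with 25HC and GW3965 with Vehicle both gave p = 0.00794 (adjusted 0.0159), 25HC3S with Vehicle gave p = 0.0238 (adjusted 0.0317) and 25HC with Vehicle p = 0.0873 (adjusted 0.0873). The permutation test was added after the data were seen. The limma fit without a filter on low values called Fdps lower under 25HC3S than under 25HC (-0.56, adjusted p = 0.00459) and higher under GW3965 than in Vehicle (0.50, adjusted p = 0.00462). It did not call 25HC3S against Vehicle (-0.33, adjusted p = 0.129) or 25HC against Vehicle (0.23, adjusted p = 0.277).

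Of the Fdps transcript, 91.4% matches 6 other genes at 95% identity or more, which are 5 processed pseudogenes and Gm43738. Gm43738, listed as protein-coding on the same strand, shares 1124 exon bases (26.7%) with Fdps and held 0 fragments. The 5 pseudogenes together held 38 to 55 fragments per library under 25HC3S, 69 to 130 under 25HC, 180 to 234 under GW3965 and 26 to 108 in Vehicle. The pseudogene Gm3571 was listed at a higher level than Fdps itself: 2.03 ± 0.468 FPKM under 25HC3S, 4.65 ± 1.11 FPKM under 25HC, 10.5 ± 0.885 FPKM under GW3965 and 3.75 ± 1.88 FPKM in Vehicle (SD, n = 5 each). Gm3571 was called higher under GW3965 than in Vehicle, by 1.37 ± 0.22 on the log2 scale (SE, adjusted p = 0.000530, limma). The values of Fdps and of Gm3571 cannot be assigned to the gene or to the pseudogene from this table, so both are uncertain. The part of read sharing in the low Fdps level was not tested.

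The mean levels ran, from high to low, GW3965, 25HC, Vehicle and 25HC3S in 6 of the 9 members: Acat2, Hmgcs1, Mvk, Mvd, Fdps and Fdft1. Pmvk and Idi1 took the same order without the 4 libraries that stand apart, which made 8 of 9. That order rests on 2 Vehicle libraries, and for Pmvk on close means of 4.96 FPKM under 25HC and 4.89 FPKM in Vehicle. Doses of GW3965 and of the oxysterols differ, and GW3965 was not tested against them. The coefficient of variation of the 9 members had a median of 20.0% in 25HC3S, 9.63% in 25HC, 8.43% in GW3965 and 26.2% in Vehicle. The comparisons with Vehicle therefore rest on the most variable group, and all 3 share its libraries. Because limma shared its estimate of spread over all groups, the spread of Vehicle also enters 25HC3S against 25HC.

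**Figure D2:**
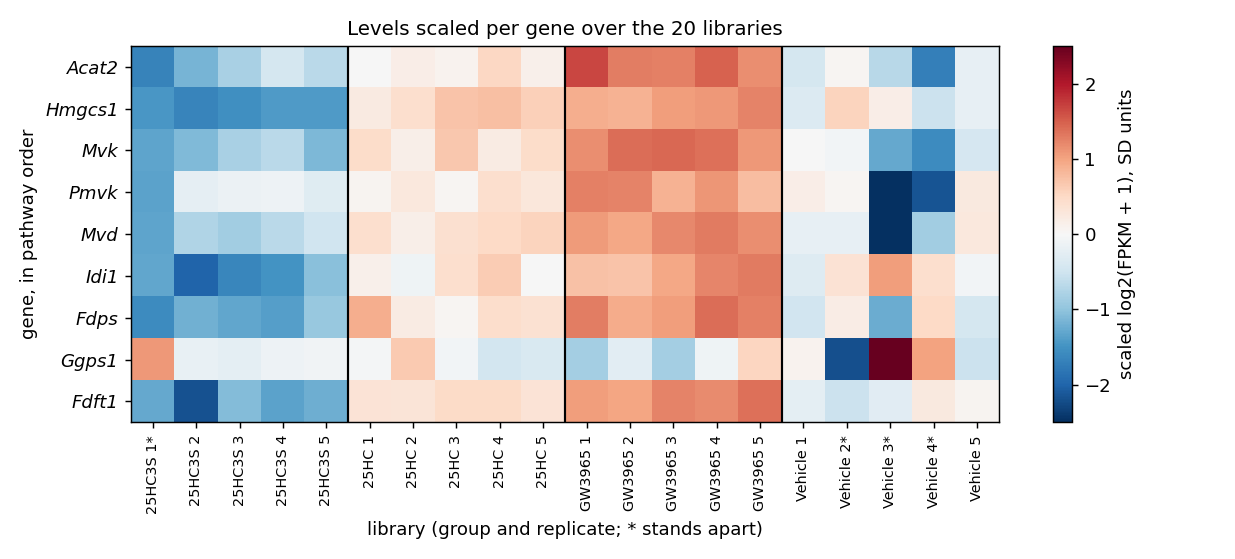
Level of each gene in each library, as log2(FPKM + 1) scaled to mean 0 and SD 1 per gene over the 20 libraries, for the 9 members in pathway order; an asterisk marks the 4 libraries that stand apart. Rows other than Ggps1 are low in 25HC3S and high in GW3965, and Vehicle replicates 3 and 4 break the pattern at Pmvk, with 0.234 and 0.522 FPKM. Vehicle replicate 3 also lies below every 25HC3S library at Mvd (0.468 FPKM). Vehicle replicate 4 does so at Mvk (5.42 FPKM) and Acat2 (4.42 FPKM).

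25HC3S was set against 25HC to ask how the sulfated oxysterol and its parent differ at the same dose of 20 µM and the same time, and it was the only pair of compounds compared. Of the 8 tested members, 4 were called lower under 25HC3S and none higher: Hmgcs1 by -1.26 ± 0.10 on the log2 scale (SE, adjusted p = 3.03e-07), Fdft1 by -1.10 ± 0.11 (adjusted p = 3.68e-06), Idi1 by -1.01 ± 0.14 (adjusted p = 0.000383) and Mvk by -0.57 ± 0.10 (adjusted p = 0.00770, limma). Of all tested genes, 0.659% were called lower and 0.157% higher in this comparison. The median difference of the 8 members was -0.82, and that of all tested genes was 0.00486.

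The other members differed in the same direction without a call, except Ggps1. Mvd differed by -1.11 (95% interval -1.77 to -0.45, adjusted p = 0.162), Acat2 by -0.62 (-0.93 to -0.32, adjusted p = 0.0520) and Pmvk by -0.53 (-1.29 to 0.23, adjusted p = 0.834, limma). These intervals rest on a spread shared by all 4 groups, so they include that of the Vehicle libraries, which are not compared here. The coefficient of variation of Pmvk was 31.75% in 25HC3S, 10.73% in 25HC and 80.17% in Vehicle. That of Mvd was 22.65%, 10.5% and 61.22%. The ranges of the 5 libraries did not overlap, with 25HC3S below 25HC, in 7 of the 8 tested members and in Fdps, where 4.02% of all tested genes were separated in that direction and 3.27% in the other. With the 4 libraries that stand apart left out, 7 of 8 members were called lower, with Acat2, Pmvk and Mvd added at -0.52, -0.34 and -1.001, and of all tested genes 4.70% were called lower and 2.49% higher. Ggps1 differed by 0.04, with a 95% interval from -0.29 to 0.36, which leaves room for a difference of either sign.

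**Figure D3:**
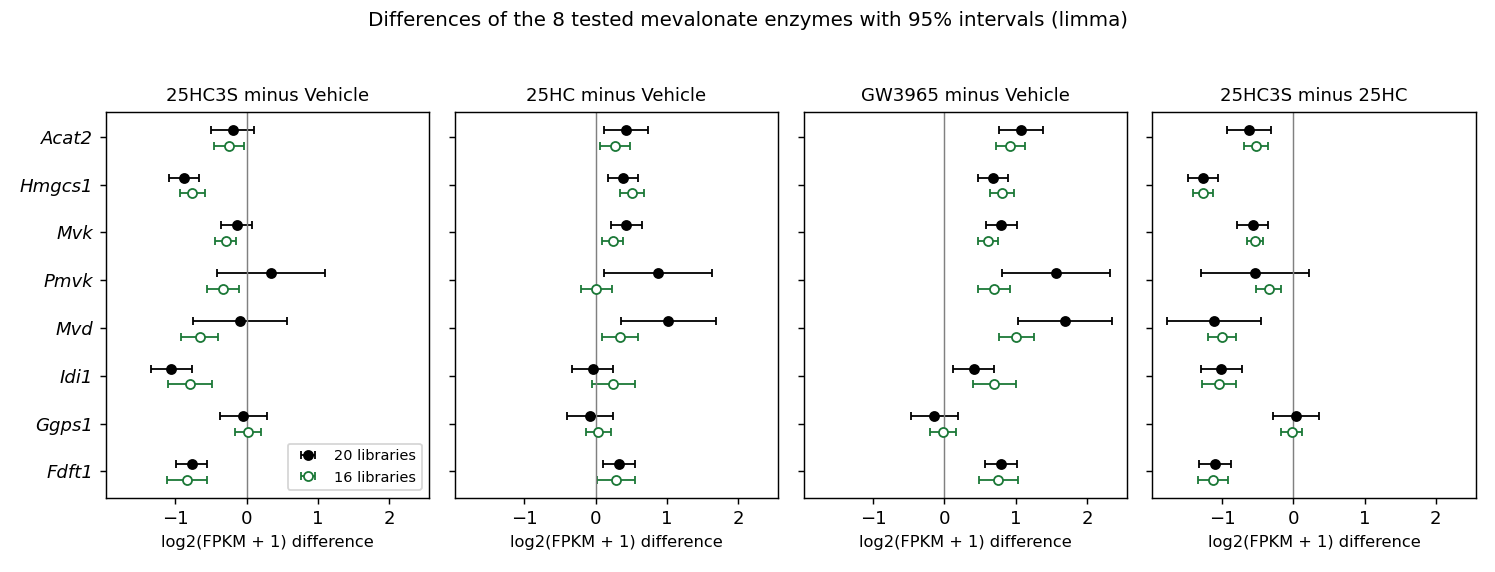
Differences of the 8 tested members in log2(FPKM + 1), with 95% intervals from limma, for 4 comparisons; filled circles are from all 20 libraries and open circles from the 16 that remain without the 4 that stand apart. Hmgcs1, Idi1 and Fdft1 lie left of 0 in both comparisons of 25HC3S, and the intervals of Pmvk and Mvd narrow when the 4 libraries are left out.

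Against Vehicle, 25HC3S lowered Hmgcs1, Idi1 and Fdft1, the genes of HMG-CoA synthase, of the isomerase and of squalene synthase. Hmgcs1 fell by 0.88 ± 0.10 on the log2 scale (SE, adjusted p = 5.43e-05), Idi1 by 1.05 ± 0.14 (adjusted p = 0.000225) and Fdft1 by 0.77 ± 0.11 (adjusted p = 0.000439, limma). These 3 of 8 members were called lower and none higher, where 1.14% of all tested genes were called lower and 0.463% higher. They are also the members whose 5 libraries of 25HC3S all lay below all 5 of Vehicle, as did those of 1.14% of all tested genes. In a fit of only these 2 groups Fdft1 lost its call (adjusted p = 0.0821), where 0.133% of all tested genes were called lower. Over the 32 member differences of all comparisons, fits of only the 2 groups compared ended 3 calls and added 2. The other 27 differences were unchanged in call and direction. Such a fit of 25HC3S and 25HC, which leaves out the Vehicle libraries, called 1.36% of all tested genes lower, against 0.659% in the fit of all groups.

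The remaining members were not called: Acat2 differed by -0.20 (95% interval -0.50 to 0.11), Mvk by -0.14 (-0.36 to 0.08), Pmvk by 0.34 (-0.42 to 1.10), Mvd by -0.09 (-0.75 to 0.57) and Ggps1 by -0.05 (-0.37 to 0.28). The median over the 8 members was -0.17, and 0.02 over all tested genes. When the 4 libraries were left out, 5 members were called lower, with Mvk at -0.30 (adjusted p = 0.0277) and Mvd at -0.66 (adjusted p = 0.00557, limma) added, where 2.63% of all tested genes were called lower and 1.33% higher. Pmvk then changed sign, to -0.33 (adjusted p = 0.105). That fit keeps only 2 Vehicle libraries.

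25HC was set against Vehicle at 20 µM. None of the 8 tested members was called in either direction by limma, where 0.0314% of all tested genes were called higher and 0.00784% lower. At an unadjusted p under 0.05, 6 members were higher under 25HC: Mvd by 1.02 ± 0.32 (SE), Pmvk by 0.88 ± 0.36, Mvk by 0.43 ± 0.10, Acat2 by 0.43 ± 0.15, Hmgcs1 by 0.38 ± 0.10 and Fdft1 by 0.33 ± 0.11, with adjusted p of 0.147 to 0.149. Of the 12752 genes, 3863 had an unadjusted p that low, and voom on fragments recovered from the FPKM also called 0 members. Mvk and Fdft1 were higher in 5 of 5 libraries than any Vehicle library, a separation that 1.41% of all tested genes showed, and 0.918% showed the opposite one. Idi1 differed by -0.04 (95% interval -0.33 to 0.25) and Ggps1 by -0.08 (-0.41 to 0.24). The median over the members was 0.40, and 0.03 over all tested genes.

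This count varied with the Vehicle libraries used. Leaving out Vehicle replicate 5 gave 6 members called higher, where 9% of all tested genes were called higher and 7.35% lower. Leaving out Vehicle replicate 1 gave 4 members called higher, where 11.3% of all tested genes were called higher and 9.52% lower. In the 16 libraries that do not stand apart, Hmgcs1 alone was called, at 0.51 ± 0.08 (SE, adjusted p = 0.0475, limma), where 0.0157% of all tested genes were called higher, and the difference of Pmvk shrank to 0.01 and that of Mvd to 0.34. In none of the fits was a member called lower under 25HC than in Vehicle.

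GW3965, at 2 µM, raised most of the arm relative to Vehicle. 6 of the 8 tested members were called higher and none lower, where 3.49% of all tested genes were called higher and 2.97% lower. Mvd rose by 1.69 ± 0.32 on the log2 scale (SE, adjusted p = 0.00259), Pmvk by 1.57 ± 0.36 (adjusted p = 0.0136) and Acat2 by 1.08 ± 0.15 (adjusted p = 0.000111, limma). Mvk rose by 0.80 ± 0.10, Fdft1 by 0.80 ± 0.11 and Hmgcs1 by 0.68 ± 0.10, with adjusted p of 7.14e-05, 9.75e-05 and 0.000312. The ranges did not overlap in the same 6 members and in Fdps, and in 3.79% of all tested genes in that direction and 3.29% in the other. The median over the members was 0.80, and 0.02 over all tested genes.

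Idi1 differed by 0.41 between GW3965 and Vehicle (95% interval 0.13 to 0.70, adjusted p = 0.0713) and Ggps1 by -0.14 (-0.46 to 0.19, adjusted p = 0.523, limma). Leaving out the 4 libraries gave 7 members called higher, with Idi1 added at 0.70, where 3.98% of all tested genes were called higher. The differences of Pmvk and Mvd shrank there to 0.70 and 1.01. In a fit of only these 2 groups Pmvk and Mvd lost their calls (adjusted p = 0.157 and 0.0864). Over all tested genes, 445 were called higher and 379 lower, and voom gave 355 higher and 471 lower, with 7 members called higher.

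The neighbouring lists were described in the same fit. Of all tested genes, 0.659% were called lower under 25HC3S against 25HC and 1.14% lower under 25HC3S against Vehicle. Under 25HC and GW3965 against Vehicle, 0.0314% and 3.49% were called higher. Of the 12 enzymes that take squalene to cholesterol, 9 were called lower under 25HC3S against 25HC and none higher, with Msmo1, a sterol demethylase, at -1.17, Cyp51, lanosterol demethylase, at -1.17 and Sqle, squalene epoxidase, at -1.15, and a list median of -0.71. Under 25HC3S against Vehicle, 7 were called lower, among them Msmo1 at -1.10 and Cyp51 at -0.89. Under 25HC against Vehicle, Sqle was called higher by 0.44 ± 0.07 (SE, adjusted p = 0.0146, limma) and the other 11 were not called. Under GW3965 against Vehicle, 11 were called higher, among them Nsdhl at 1.26, Sc5d at 1.05 and Lss, lanosterol synthase, at 0.98. In the 16 other libraries the counts were 10 lower, 9 lower, 0 (7 higher at an unadjusted p under 0.05, limma) and 11 higher, in the same order of comparisons. Of all tested genes, 4.70% and 2.63% were called lower there in the first 2 comparisons, and 0.0157% and 3.98% higher in the last 2. Under 25HC against Vehicle, 720 of the 12752 genes had an unadjusted p that low in either direction.

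Of 9 genes of SREBP2 and its control, 4 were called lower under 25HC3S against 25HC, among them Insig1, the sterol-dependent retention protein, at -1.41 and Stard4, a sterol carrier, at -0.72. Under 25HC3S against Vehicle 4 were called lower, with Insig1 at -0.91 and Stard4 at -0.74. Under 25HC against Vehicle 2 were called higher, among them Srebf2, the gene of SREBP2, at 0.32. Under GW3965 against Vehicle 4 were called higher, with Insig1 at 1.89. The counts were 4 lower, 5 lower, 1 higher and 6 higher without the 4 libraries, and Insig1 was then the gene called under 25HC. The shares of all tested genes in that fit were 4.70% lower, 2.63% lower, 0.0157% higher and 3.98% higher.

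**Figure D4:**
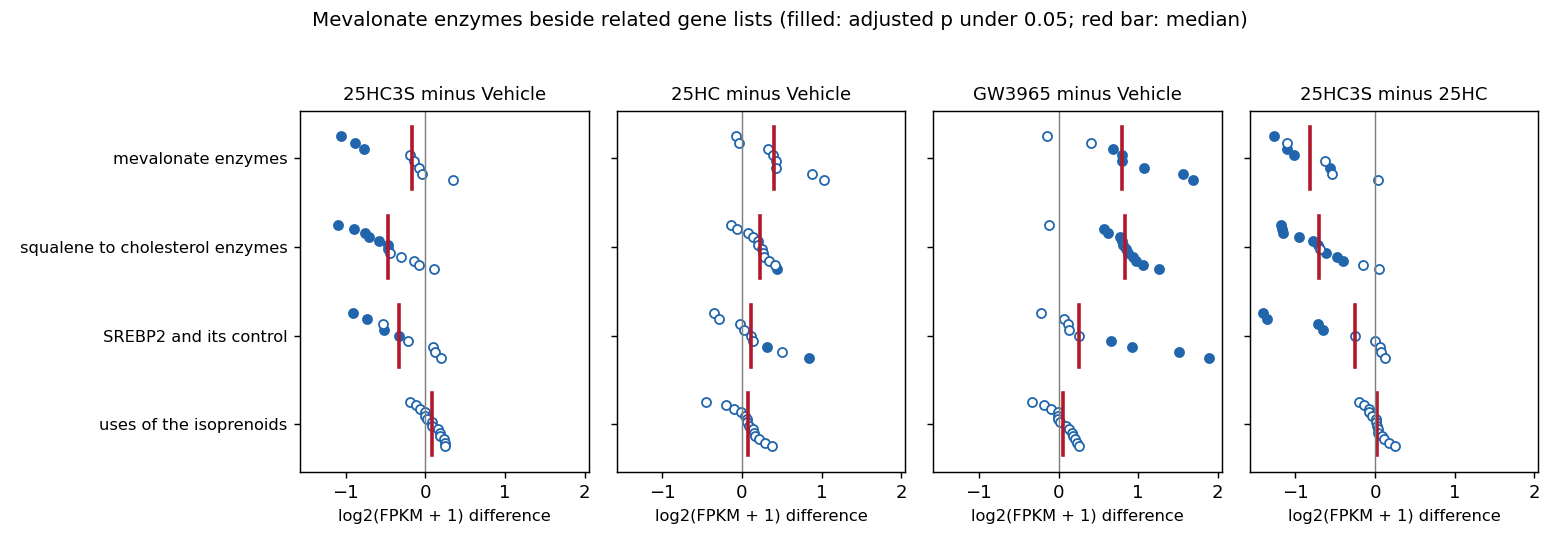
Differences of single genes in log2(FPKM + 1) for the mevalonate enzymes and 3 related lists in 4 comparisons; filled circles passed an adjusted p of 0.05 in limma and red bars are list medians. The medians of the enzymes before and after squalene lie on the same side of 0 in each comparison, and no gene of the isoprenoid-using list is filled.

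The 14 genes that use the isoprenoids, among them the prenyltransferase subunits and the first enzymes of ubiquinone and dolichol synthesis, had 0 called in all 4 comparisons by limma, with list medians of 0.02 to 0.08. At an unadjusted p under 0.05, 0 of them stood under 25HC3S against 25HC, 4 higher under 25HC3S against Vehicle, 1 higher and 2 lower under 25HC and 1 higher under GW3965. Of the 12752 tested genes, 908, 2183, 3863 and 4069 had an unadjusted p that low in these 4 comparisons, in the same order and in either direction. Without the 4 libraries 1 of them, Icmt, named after its values were seen, was called higher under 25HC3S against 25HC (0.12) and against Vehicle (0.18). Of all tested genes, 2.49% and 1.33% were called higher in these comparisons. Of the related enzymes outside the arm, Acat1, the mitochondrial thiolase, and Nudt19 were called lower under GW3965, at -0.25 and -0.60, calls that ended without the 4 libraries.

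The members varied together between groups. Among the 7 tested members other than Ggps1, the 21 pairwise Pearson correlations of log2(FPKM + 1) over the 20 libraries ran from 0.24 to 0.95, with a median of 0.83, and over the 16 libraries from 0.80 to 0.98. Once group means were removed the median was 0.08. The 7 pairs with Ggps1 ran from -0.70 to 0.05. Among the 8 genes outside the arm most like the mean profile of the 8 tested members were Srebf2 (r = 0.983), Sqle (0.972), Insig1 (0.966), Sc5d (0.963), Cyp51 (0.952) and Lss (0.942), over 20 libraries in 4 groups. With group means removed, r for these genes was 0.436, 0.420, 0.348, 0.614, 0.155 and 0.227, in the same order. All points of these correlations share libraries, depth and groups, and they carry no test.

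Markers of other cell types moved with some of the same comparisons. The summed level of 10 macrophage markers, all detected, ranged over 378.5 to 726.3 FPKM under 25HC3S, 705 to 998 FPKM under 25HC, 901.6 to 1043 FPKM under GW3965 and 424.8 to 1017 FPKM in Vehicle. The summed level of 6 genes of dividing cells ranged over 119 to 137, 107 to 129 and 79.9 to 91.3 FPKM under 25HC3S, 25HC and GW3965, and over 115 to 151 FPKM in Vehicle. The 10 chondrocyte markers summed to 2398 to 3678 FPKM under 25HC3S, 3643 to 3985 FPKM under 25HC, 3845 to 4757 FPKM under GW3965 and 1734 to 5051 FPKM in Vehicle. The summed levels of 3 other lists were lower in every 25HC3S library than in any 25HC library. For 5 adipocyte markers, with Lep at 0 throughout, they were 9.61 to 16.7 FPKM under 25HC3S and 21.1 to 28.3 FPKM under 25HC. For 8 markers of fibroblasts and tendon they were 2734 to 2869 FPKM under 25HC3S and 3154 to 3749 FPKM under 25HC, and for 5 of osteoblasts and osteocytes 115.7 to 131.2 FPKM under 25HC3S and 137.4 to 145.7 FPKM under 25HC. Markers of endothelium and of skeletal muscle summed to at most 9.84 FPKM in any library. Markers of erythroid cells and neutrophils never summed to 1 FPKM. Without the 4 libraries, the macrophage sums were 598.1 to 726.3 FPKM under 25HC3S and 854 to 1017 FPKM in Vehicle, the adipocyte sums 14.8 to 16.7 FPKM under 25HC3S and 24.7 to 25.4 FPKM in Vehicle, and the fibroblast and tendon sums 2734 to 2868 FPKM under 25HC3S and 3029 to 3070 FPKM in Vehicle. These 3 sums thus lay lower in every 25HC3S library than in both Vehicle libraries of the fit that called 5 members lower. The part of these markers in the results above was not tested, and in bulk RNA fewer cells of a type and less RNA per cell cannot be told apart.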

How the data were processed

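RNA was sequenced from 20 libraries, 5 in each of 4 groups. The authors deposited FPKM per gene, and CASAVA 1.8 and HISAT2 2.0.5 are named in the submitters' processing notes. The sources used here do not give how fragments were counted, whether by strand, or on which build. Of the gene IDs, 99.9% were in GENCODE M21 and 98.3% of those had its coordinates, on GRCm38. Each FPKM value times gene length was a whole multiple of a step per library, within 0.02, for 100% of values, which gave the fragments per library.

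Genes with at least 1 FPKM in at least 5 libraries were tested on log2(FPKM + 1) with limma 3.58.1 in R 4.3.3, with a mean per group over all 20 libraries, empirical Bayes with trend and Benjamini-Hochberg adjustment within each comparison. Intervals are 95% intervals. The fit was tried on simulated fragments whose spread came from the 16 libraries that do not stand apart. That spread was the same in every group, so the trial does not cover the wider spread of Vehicle. Transcripts were matched to other transcripts with blastn 2.17.0, counting alignments of at least 100 bases at 95% identity. Promoter windows are from RefSeq. Fragments carry no known molecular identifiers, so depth covers counting error only.

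All 9 members are named, with up to 3 called genes of largest difference per related list and comparison, and the 8 genes most like the members. Results of some other genes that the rule names are not reported here. The members, lists and tests were chosen with earlier results of these data known. Alternatives were another pseudocount, other filters, median scaling, voom, library weights, fits of the groups compared, a replicate block, leaving out single libraries and, chosen after seeing the data, leaving out 4 libraries and the permutation test of Fdps. Apart from the replicate block, replicate numbers were not used to pair libraries, and whether they mark pairs is not known.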

Additional observations from a re-analysis of the deposited data

Results flagged for a closer look

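Among 36 sets of 5 libraries, a member by a group, 3 held a library far from the other 4 of its group, where chance gives about 1 set in 20. Pmvk had 1.42 FPKM in 25HC3S replicate 1, below 3.42 to 3.86 FPKM in the other 4 libraries. Ggps1 had 10.1 FPKM in the same library, above 7.86 to 8.10 FPKM in the others. Both values come from a library that stands apart by its few genes at 1 fragment. Fdft1 had 2.89 FPKM in 25HC3S replicate 2, which does not stand apart in that way, below 4.56 to 5.15 FPKM in the others.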

How the results depend on the processing

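Settings below are those of processing, and the cause of each shift was not tested. With library weights 5 members were called lower under 25HC3S against Vehicle (3.81% of all tested genes), 1 (Hmgcs1) higher under 25HC against Vehicle (0.0941%), 7 higher under GW3965 against Vehicle (4.79%) and 6 lower under 25HC3S against 25HC (5.42%). Without the 4 libraries that stand apart these counts were 5, 1, 7 and 7. Leaving out 1 library gave 0 to 6 members called higher under 25HC against Vehicle (4 without Vehicle replicate 1, with 11.3% of all tested genes called higher, and 6 without Vehicle replicate 5, with 9%). It gave 3 called lower under 25HC3S against Vehicle (0.58% to 2.22% of all tested genes) and 4 to 5 lower under 25HC3S against 25HC (0.423% to 0.659%). Under GW3965 against Vehicle it gave 6 to 7 higher (1.83% to 14.3%, the most without Vehicle replicate 1). No called member changed direction under any setting. Signs turned only for uncalled differences. Under 25HC3S against Vehicle, Mvd was 0.0397 with a pseudocount of 0.1, 0.10 by voom and -0.51 to 0.14 on leaving out 1 library, Pmvk was -0.30 with weights, -0.33 without the 4 libraries and -0.0031 to 0.57 on leaving out 1, and Ggps1 was 0.0395, 0.0153 and -0.195 to 0.120. Under 25HC against Vehicle, Ggps1 was 0.0570 with weights, 0.0403 without the 4 and -0.230 to 0.0845 on leaving out 1, and Idi1 was 0.21 with weights, 0.0080 by voom, 0.25 without the 4 and -0.133 to 0.0704. Ggps1 was -0.289 to 0.0257 under GW3965 against Vehicle on leaving out 1, and under 25HC3S against 25HC -0.0174 with weights, -0.0251 without the 4 and -0.0251 to 0.0786.

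With a replicate block the counts of called members were 3 lower under 25HC3S against Vehicle (0.902% of all tested genes), 0 under 25HC against Vehicle (0.00784% higher), 6 higher under GW3965 against Vehicle (2.18%) and 4 lower under 25HC3S against 25HC (0.557%). These counts were as without it, and all 32 member differences kept their direction and side of the threshold. Correlations between same-numbered libraries, of deviations from group means, ran from -0.702 to 0.270. They cannot show whether animals or cultures were paired. Depth limits Fdps, at 4 to 83 fragments.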
